A study of Mus musculus with 4 samples.

Results

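Ephrins, semaphorins, netrins and Slits are the classical families of guidance ligands, and the genes described here encode these ligands and their Eph, plexin, neuropilin and Robo receptors. The genes were chosen by symbol. A gene entered if its symbol began with Epha, Ephb, Efna, Efnb, Sema, Plxn, Slit or Robo followed by a digit or letter, or was Nrp1, Nrp2, Ntn1 or Ntn4, and if it had at least 50 UMIs (unique molecular identifiers, each standing for 1 captured mRNA molecule) over all cells of the table. The rule gave 71 symbols, of which 58 passed the minimum, out of 27998 genes in the table. Just inside the minimum were Robo3 with 53 UMIs and Epha10 with 58, and just outside were Plxnc1 with 39 and Epha8 with 31, while 3 of the 13 symbols left out had 0 UMIs. The 58 genes were 5 ephrin-A and 3 ephrin-B ligands, 6 EphA and 5 EphB receptors, 6 class 3 (secreted) semaphorins, 13 membrane semaphorins, 6 plexins, 2 neuropilins, 3 Slits, 4 Robos and 2 netrins. The last 3 were Slitrk2, Slitrk4 and Slitrk5, which share the first letters of the symbol but encode neuronal leucine-rich repeat membrane proteins and not Slit ligands.

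Ephrins are tethered to the membrane of the presenting cell, by a lipid anchor in the A class and by a transmembrane segment in the B class, and signal through Eph receptor tyrosine kinases on the touching cell. Class 3 semaphorins are secreted and mostly act through neuropilins, which bind the ligand, and plexins, which carry the signal. Slits are large secreted proteins that bind Robo receptors, and netrins act through Dcc, neogenin and Unc5 receptors. Beyond axon guidance, these systems are known in the early embryo for repulsion and sorting of cells at boundaries, including those between somites, and for the midline, where notochord and floor plate secrete Slits and netrin.

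The study compared mouse cells grown by 4 culture protocols that aim at neuromesodermal progenitors (NMPs), bipotent cells of the tail end of the embryo that form both spinal cord and somites. Each protocol was 1 single-cell RNA-seq library (10x Chromium, 3' end counting), with about 8700 cells loaded per library, and E14Tg2a was the strain labelled for all. Epi-NMP cells came from epiblast stem cells (EpiSCs) that were taken through the Epi-CE culture, lifted, and grown for 2 more days with 20 ng/ml FGF2 and 3 µM CHIR99021, an inhibitor of GSK3 that activates Wnt signalling. Epi-CE-T cells came from a Bra:GFP reporter line, in which GFP stands for Brachyury (T), and were sorted as GFP-positive cells at 72 h of the Epi-CE culture. Epi-CE cells were EpiSCs, kept in 12 ng/ml FGF2 and 25 ng/ml activin, that were moved to 20 ng/ml FGF2 without activin and given 3 µM CHIR99021 as well from day 3, and the Epi-CE-T cells had the same treatment. ES-NMP cells came from embryonic stem (ES) cells kept for 2 days in the serum-free medium N2B27 alone and then 24 h with 3 µM CHIR99021, 72 h in all. All 4 libraries thus had CHIR99021, and Epi-CE-T differed from Epi-CE in both the line and the sort, which cannot be told apart.

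With 1 library per protocol there were no replicates, so no test between protocols was made and every interval below is a 95% interval for counting error alone. Values are UMIs per 1000000 (written CPM) of the summed UMIs of the cells that the authors' table marks TRUE, which were 1111 of 2624 Epi-NMP barcodes, 2109 of 2201 Epi-CE-T barcodes, 2386 of 2466 Epi-CE barcodes and 3116 of 3288 ES-NMP barcodes. Summed depth was 22261452, 44990488, 58663735 and 71563029 UMIs in the same order, with median depths per cell of 19189 to 22614 UMIs, and ribosomal (26.5% to 27.2%) and mitochondrial (2.26% to 2.67%) shares were close. The meaning of the mark is not given in the sources used here, and it removed 57.7% of Epi-NMP barcodes but 3.24% to 5.23% of those in the other libraries. Among the TRUE cells, 42 barcode sequences occurred in more than 1 library. Brachyury (T) had 240.6 CPM in Epi-NMP, 382.1 in Epi-CE-T, 430.5 in Epi-CE and 102.3 in ES-NMP, so the library sorted for its reporter was not above the unsorted Epi-CE library. Sox2, the other gene of the NMP pair, had 99.99, 48.97, 31.38 and 71.66 CPM in the same libraries. In ES-NMP and Epi-CE-T, much of the Sox2 was not in cells high in T. In ES-NMP, 3215 of 5128 Sox2 UMIs lay in naive pluripotent-like cells (cluster 4 below, with T at 15.6 CPM). In Epi-CE-T, 995 of 2203 lay in cluster 9 below, with T at 39.5 CPM. The other libraries differed. In Epi-NMP, 1913 of 2226 Sox2 UMIs lay in cluster 3 below, with T at 228 CPM. In Epi-CE, 1110 of 1841 lay in cluster 11 below, with T at 365.6 CPM. Meox1, a marker of paraxial mesoderm, had 26.95 CPM in Epi-NMP and at most 0.824 in the other libraries, and Foxa2, a node and endoderm gene, had 15.3, 34.3, 35.4 and 1.26 CPM. Zfp42, a marker of naive ES cells, had 167.2 CPM in ES-NMP and at most 0.0682 elsewhere. A level summed over a library cannot tell a change in the share of cells of a type from a change in mRNA per cell.

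Between their highest and lowest library, 44 of the 58 genes differed at least 2-fold, 31 at least 4-fold and 9 at least 10-fold, with a median of 4.13-fold. Epha5 and Slit2 had the widest spans, 53.3-fold and 52.4-fold, followed by Sema3a with 31.1-fold and Nrp1 with 22.6-fold. The highest library was Epi-NMP for 25 genes, Epi-CE-T for 21, Epi-CE for 8 and ES-NMP for 4. At least 10 CPM was reached by 22 genes in Epi-NMP, 18 in Epi-CE-T, 12 in Epi-CE and 8 in ES-NMP, and the 58 genes summed to 564.3, 541, 473.2 and 327.9 CPM. When each gene's 4 levels were put in order, the intervals of all neighbours were apart for 9 genes, and 1, 2 or 3 of the 3 neighbouring pairs had overlapping intervals for 20, 17 and 12 genes. The counts of this paragraph were not made for all genes of the table. They describe the 58 genes and do not show that guidance genes differ from other genes. Levels are compared for the same gene between libraries and not between genes.

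**Figure D1:**
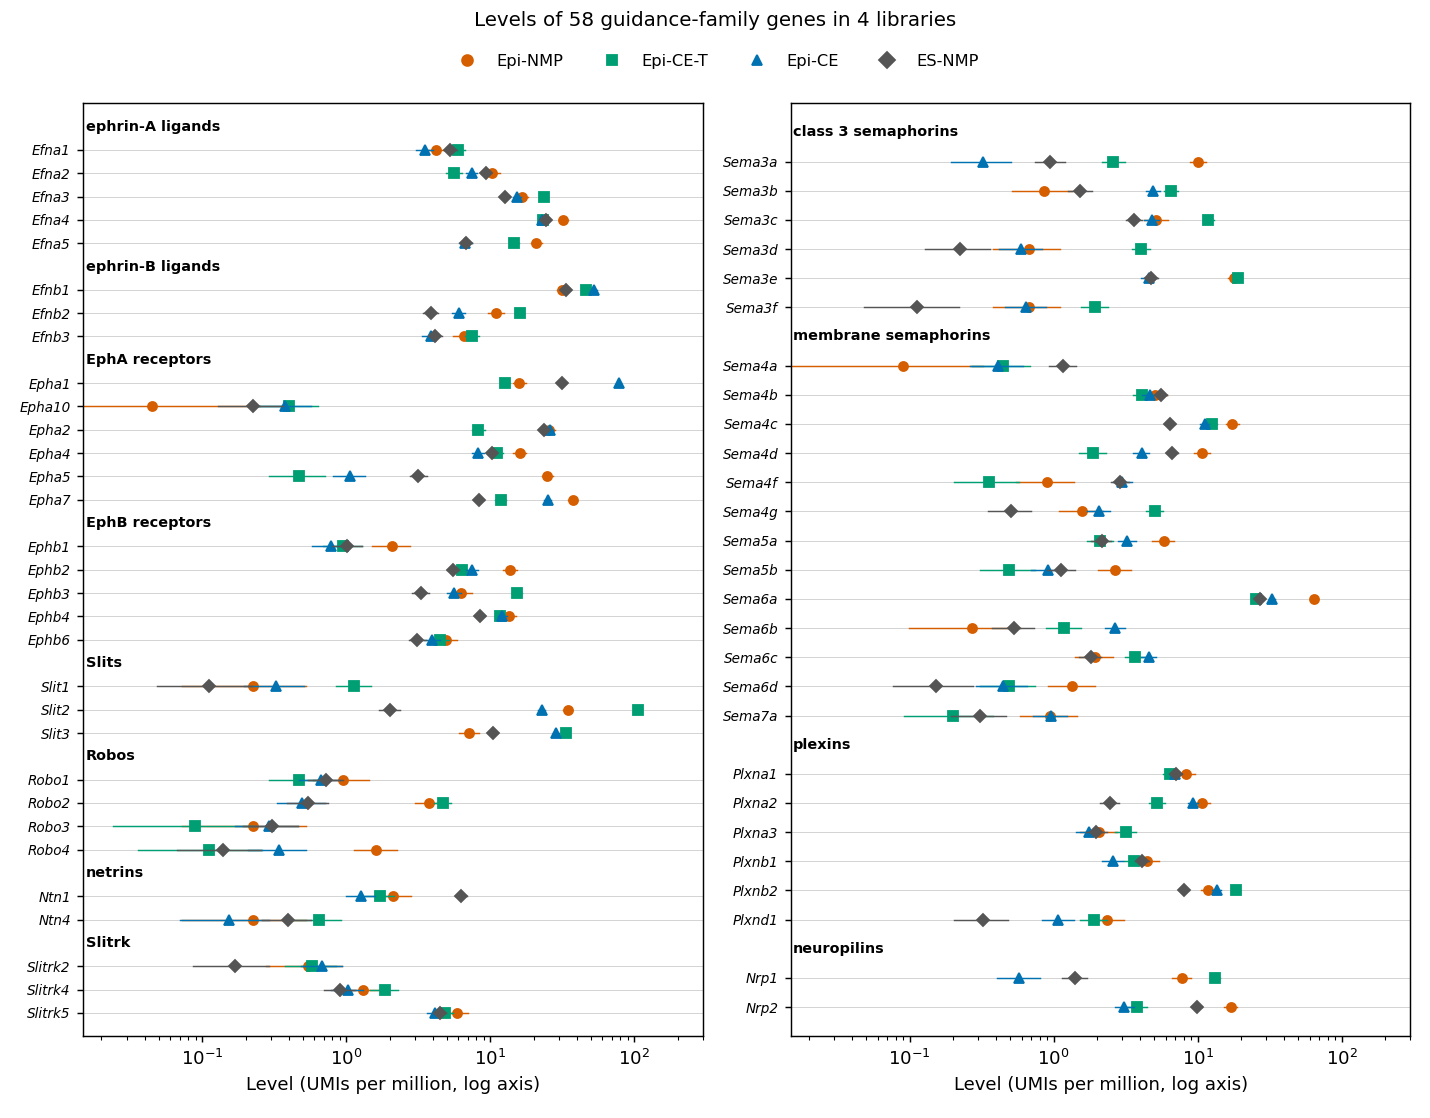
Level of each of the 58 guidance genes in the 4 libraries, by role, on a log axis in CPM with 95% Poisson intervals as bars. Epha5, Slit2, Sema3a and Nrp1 show the widest gaps between libraries, 22.6-fold to 53.3-fold, while most ephrins and plexins lie closer together.

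For the 4 genes with the widest spans, the sequence around the start site is shown. The windows run from 250 bases before to 50 bases after the start, from RefSeq on GRCm38.p6 (the assembly behind mm10), on the gene's own strand, with CpG dinucleotides in capitals.
Epha5, chr5:84417333-84417632, minus strand: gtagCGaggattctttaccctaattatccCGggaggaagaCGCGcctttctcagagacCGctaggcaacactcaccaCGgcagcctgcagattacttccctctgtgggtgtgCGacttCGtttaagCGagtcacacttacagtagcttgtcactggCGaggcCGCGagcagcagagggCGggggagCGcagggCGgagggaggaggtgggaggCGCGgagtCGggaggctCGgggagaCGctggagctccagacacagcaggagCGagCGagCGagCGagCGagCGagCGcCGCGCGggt
Slit2, chr5:47982905-47983204, plus strand: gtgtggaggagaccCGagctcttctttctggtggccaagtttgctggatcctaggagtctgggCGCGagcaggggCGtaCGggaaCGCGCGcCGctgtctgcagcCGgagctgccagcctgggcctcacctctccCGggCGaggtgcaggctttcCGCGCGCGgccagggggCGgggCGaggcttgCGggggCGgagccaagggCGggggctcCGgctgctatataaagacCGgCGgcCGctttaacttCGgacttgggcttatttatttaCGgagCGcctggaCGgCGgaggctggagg
Sema3a, chr5:13396534-13396833, plus strand: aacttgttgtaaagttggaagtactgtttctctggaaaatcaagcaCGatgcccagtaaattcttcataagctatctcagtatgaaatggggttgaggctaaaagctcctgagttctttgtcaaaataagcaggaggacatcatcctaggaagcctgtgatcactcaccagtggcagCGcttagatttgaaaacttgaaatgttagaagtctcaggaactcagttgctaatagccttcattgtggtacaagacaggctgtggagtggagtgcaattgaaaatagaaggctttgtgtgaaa
Nrp1, chr8:128358823-128359122, plus strand: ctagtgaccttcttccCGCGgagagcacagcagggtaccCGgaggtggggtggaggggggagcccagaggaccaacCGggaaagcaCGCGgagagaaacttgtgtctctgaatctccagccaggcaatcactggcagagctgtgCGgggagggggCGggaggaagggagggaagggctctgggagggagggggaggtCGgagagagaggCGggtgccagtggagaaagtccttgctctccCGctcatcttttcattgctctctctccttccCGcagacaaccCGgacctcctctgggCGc
The Epha5 and Slit2 windows each hold 30 CpGs, with 64.3% and 68% GC, and the Nrp1 window holds 14 at 64% GC. The Sema3a window is AT-rich by comparison, with 2 CpGs and 41.3% GC. The Sema3a and Nrp1 windows lie wholly inside their genes as GENCODE M21 draws them (chromosome 5, bases 13125414 to 13602565, and chromosome 8, bases 128358604 to 128503363). Promoter windows were found for 50 of the 58 genes, 67 windows in all, with a median GC content of 64% and a median of 19 CpGs, against 52.7% and 7 over all 32841 mouse windows. None of the 67 held the forkhead motif TGTTTAC on either strand, against 3.65% of all windows. The T-box motif AGGTGT was in 6 of them (8.96%, against 13.7% of all) and the TCF/LEF motif CTTTGA in 5 (7.46%, against 16%). None of the 4 printed windows holds any of these 3 motifs, which says only that these letters are not in these windows.

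Among the ephrin-A ligands, Efna5 was the gene that differed most. It had 20.9 CPM in Epi-NMP (95% interval 19.0 to 22.9), 14.7 in Epi-CE-T (13.6 to 15.9), 6.72 in Epi-CE (6.07 to 7.41) and 6.79 in ES-NMP. Epi-NMP was thus highest, Epi-CE-T second, and the intervals of Epi-CE and ES-NMP overlapped. Efna1 had 4.18, 5.94, 3.49 and 5.28 CPM in the same order, Efna3 had 16.5, 23.7, 15.4 and 12.6, and Efna4 had 32.1, 23.3, 23.0 and 24.2. Efna2 lay between 5.58 and 10.3 CPM in the 4 libraries. None of these 4 ligands reached 2-fold in any of the 4 comparisons made.

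Of the ephrin-B ligands, Efnb2, which is known for its role in somite boundaries and in arterial vessels, had 10.9 CPM in Epi-NMP, 15.9 in Epi-CE-T, 6.02 in Epi-CE and 3.86 in ES-NMP. Its level in Epi-CE-T was 2.65 times that in Epi-CE (2.33 to 3.02), and in Epi-NMP it was 2.83 times that in ES-NMP. Efnb1 was instead highest in Epi-CE, with 31.5 CPM in Epi-NMP, 46.5 in Epi-CE-T, 52.8 in Epi-CE and 33.7 in ES-NMP. None of its 4 ratios reached 2-fold. Efnb3 had 6.51, 7.47, 3.85 and 4.12 CPM, also within 2-fold in each comparison.

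EphA receptors, which mainly bind ephrin-A ligands, differed far more than those ligands. Epha5, a receptor best known from the forming brain, had 24.9 CPM in Epi-NMP (22.9 to 27.1), 0.467 in Epi-CE-T (0.289 to 0.714), 1.06 in Epi-CE (0.810 to 1.36) and 3.17 in ES-NMP. No interval overlapped its neighbour's, and Epi-NMP stood 23.6-fold above Epi-CE (18.1 to 31.1) and 7.85-fold above ES-NMP (6.71 to 9.20). Epha7 had 37.3 CPM in Epi-NMP, 11.8 in Epi-CE-T, 25.0 in Epi-CE and 8.36 in ES-NMP, and was 4.47-fold higher in Epi-NMP than in ES-NMP (4.02 to 4.97) and 2.99-fold higher in Epi-CE than in ES-NMP (2.71 to 3.29). Its level in Epi-CE-T was 2.11-fold lower than in Epi-CE (1.91 to 2.34).

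Epha1 peaked in Epi-CE, with 15.9 CPM in Epi-NMP, 12.6 in Epi-CE-T, 77.9 in Epi-CE and 31.7 in ES-NMP. It was 4.90-fold lower in Epi-NMP than in Epi-CE (4.40 to 5.47) and 6.17-fold lower in Epi-CE-T than in Epi-CE (5.65 to 6.74). Epha1 overlaps Zyx on the opposite strand, Zyx had 98.5, 68.6, 143.9 and 70.9 CPM in the same libraries, and whether counting used strand is not given in the sources used here, so the Epha1 values are uncertain. Epha2 had 25.7, 8.27, 25.9 and 23.7 CPM, so that Epi-CE-T alone stood apart, 3.13-fold below Epi-CE (2.79 to 3.51). Epha4, which also binds ephrin-B ligands and is known from somite boundaries, had 16.0, 11.1, 8.23 and 10.3 CPM and is given here because of its levels in clusters, seen beforehand. Epha10 had at most 0.400 CPM in any library.

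EphB receptors, which bind ephrin-B ligands, were flatter. Ephb2 had 13.7 CPM in Epi-NMP, 6.40 in Epi-CE-T, 7.43 in Epi-CE and 5.53 in ES-NMP, Ephb4 had 13.5, 11.7, 12.1 and 8.43, and Ephb3 had 6.29, 15.3, 5.59 and 3.28. Ephb1 lay between 0.784 and 2.07 CPM and Ephb6 between 3.12 and 4.90. Ephb3 was 2.74-fold higher in Epi-CE-T than in Epi-CE (2.40 to 3.13), the only EphB receptor past 2-fold in that comparison, and Ephb2 was 2.48-fold higher in Epi-NMP than in ES-NMP. Summed over the 8 ephrins, the libraries had 132.9, 143.1, 118.6 and 99.99 CPM. Summed over the 11 Eph receptors they had 160.2, 83.5, 168.3 and 98.8 CPM, so the sorted Epi-CE-T library had the highest ephrin sum and the lowest Eph sum. The Eph order rested on the uncertain Epha1 values, since without Epha1 the sums were 144.3, 70.9, 90.4 and 67.1 CPM and ES-NMP was lowest.

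Of the class 3 semaphorins, Sema3a differed most between protocols. This gene, the prototype repellent of the class, had 10.1 CPM in Epi-NMP (8.79 to 11.5), 2.60 in Epi-CE-T (2.15 to 3.12), 0.324 in Epi-CE (0.195 to 0.506) and 0.950 in ES-NMP. Its 4 intervals did not overlap, and the Epi-NMP level was 31.1 times that in Epi-CE (19.4 to 52.6, resting on 19 UMIs in Epi-CE) and 10.6 times that in ES-NMP (8.04 to 14.1). Sema3e, which binds Plexin-D1 without a neuropilin, formed pairs of libraries, with 18.0 CPM in Epi-NMP and 19.0 in Epi-CE-T against 4.60 in Epi-CE and 4.75 in ES-NMP. Intervals overlapped within each pair, and Sema3e was 3.90-fold higher in Epi-NMP than in Epi-CE (3.34 to 4.57) and 4.13-fold higher in Epi-CE-T than in Epi-CE (3.60 to 4.76).

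Sema3d had its high level in Epi-CE-T, with 0.674 CPM in Epi-NMP, 4.07 in Epi-CE-T, 0.597 in Epi-CE and 0.224 in ES-NMP, and was 6.82-fold higher in Epi-CE-T than in Epi-CE (4.73 to 10.1). Sema3c had 5.17, 11.9, 4.81 and 3.62 CPM, and Sema3f lay between 0.112 in ES-NMP and 1.93 in Epi-CE-T, so both were again highest in Epi-CE-T. Sema3b went against Sema3a, with 0.854 CPM in Epi-NMP, 6.54 in Epi-CE-T, 4.89 in Epi-CE and 1.52 in ES-NMP, and was 5.73-fold lower in Epi-NMP than in Epi-CE (3.60 to 9.66).

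Among the membrane semaphorins, Sema6a, which signals through class A plexins, had 64.2 CPM in Epi-NMP, 25.2 in Epi-CE-T, 32.8 in Epi-CE and 26.9 in ES-NMP. It was 2.39-fold higher in Epi-NMP than in ES-NMP. Sema4c, a ligand of Plexin-B2, had 17.4, 12.5, 11.2 and 6.40 CPM, and Sema4d, a ligand of Plexin-B1, had 10.7, 1.87, 4.07 and 6.64. Sema4d was 2.64-fold higher in Epi-NMP than in Epi-CE and 2.18-fold lower in Epi-CE-T than in Epi-CE. Sema6b had 0.270, 1.18, 2.66 and 0.531 CPM and was 9.87-fold lower in Epi-NMP than in Epi-CE (4.43 to 27.3), a value that rests on 6 Epi-NMP UMIs. Sema4f had 0.898 and 0.356 CPM in Epi-NMP and Epi-CE-T, against 3.00 in Epi-CE and 2.89 in ES-NMP. Sema6c had 1.93, 3.69, 4.57 and 1.80 CPM in the 4 libraries. Of the other 7 membrane semaphorins, Sema4b lay between 4.13 and 5.59 CPM (its Epi-NMP over Epi-CE ratio was 1.10 in the TRUE cells and 1.94 over all barcodes), and Sema4g, between 0.503 in ES-NMP and 5.02 in Epi-CE-T, was high in the sorted library. Sema5a (2.11 to 5.80 CPM), Sema5b (0.489 to 2.65) and Sema6d (0.154 to 1.35) had their highest level in Epi-NMP, Sema4a (0.0898 to 1.16) in ES-NMP and Sema7a (0.200 to 0.955) in Epi-CE.

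On the receptor side, Plxna2 and Plxnd1 were the plexins past 2-fold. Plxna2, a receptor for Sema6a as well as a partner of neuropilins, had 10.7 CPM in Epi-NMP, 5.22 in Epi-CE-T, 9.27 in Epi-CE and 2.46 in ES-NMP. It was 4.33-fold higher in Epi-NMP than in ES-NMP (3.55 to 5.29) and 3.77-fold higher in Epi-CE than in ES-NMP (3.18 to 4.50). Plxna1 had 8.27, 6.42, 7.01 and 7.10 CPM, Plxnb1 4.45, 3.62, 2.57 and 4.12, and Plxnb2 11.9, 18.5, 13.6 and 8.02, none past 2-fold in any of the 4 comparisons. Plxna3 was also within 2-fold, between 1.76 and 3.16 CPM. Plxnd1, the Sema3e receptor, had its lowest level in ES-NMP, with 2.34, 1.91, 1.07 and 0.321 CPM, and was 7.27-fold higher in Epi-NMP and 3.34-fold higher in Epi-CE than in ES-NMP.

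Nrp1 and Nrp2, which also serve as coreceptors of vascular endothelial growth factors, did not differ in the same way. Nrp1 had 7.73 CPM in Epi-NMP (6.62 to 8.97), 13.1 in Epi-CE-T (12.1 to 14.2), 0.580 in Epi-CE (0.401 to 0.810) and 1.40 in ES-NMP. It was 22.6-fold higher in Epi-CE-T than in Epi-CE (16.0 to 33.0), 13.3-fold higher in Epi-NMP than in Epi-CE (9.19 to 19.9) and 2.41-fold lower in Epi-CE than in ES-NMP (1.62 to 3.67). Nrp2 had 16.9 CPM in Epi-NMP, 3.80 in Epi-CE-T, 3.10 in Epi-CE and 9.92 in ES-NMP. It was 5.46-fold higher in Epi-NMP than in Epi-CE (4.56 to 6.55) and 3.20-fold lower in Epi-CE than in ES-NMP (2.71 to 3.79), while its intervals in Epi-CE-T and Epi-CE overlapped. The sum over the 19 semaphorins was 148.4 CPM in Epi-NMP, 103.7 in Epi-CE-T, 86.8 in Epi-CE and 67.3 in ES-NMP, and that over the 8 plexins and neuropilins was 64.3, 55.8, 39.0 and 35.3, the same order of libraries.

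Slit2, the Slit known from notochord and floor plate, had 34.5 CPM in Epi-NMP (32.1 to 37.0), 105.4 in Epi-CE-T (102.4 to 108.4), 22.7 in Epi-CE (21.5 to 24.0) and 2.01 in ES-NMP. All 3 libraries made from EpiSCs were above ES-NMP, by 17.1-fold for Epi-NMP (14.3 to 20.6) and 11.3-fold for Epi-CE (9.51 to 13.5), and Epi-CE-T was 4.63-fold above Epi-CE (4.36 to 4.93). Slit3 did not follow Slit2, with 7.10 CPM in Epi-NMP, 33.5 in Epi-CE-T, 28.5 in Epi-CE and 10.4 in ES-NMP. It was 4.01-fold lower in Epi-NMP than in Epi-CE (3.41 to 4.75), where Slit2 was within 2-fold. Slit1 was near the bottom of the measured range, with 0.225, 1.13, 0.324 and 0.112 CPM.

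Of the Robo receptors, Robo2 had 3.77 CPM in Epi-NMP, 4.67 in Epi-CE-T, 0.494 in Epi-CE and 0.545 in ES-NMP. The first pair of intervals overlapped and so did the second, and Robo2 was 7.63-fold higher in Epi-NMP than in Epi-CE (4.95 to 12.1) and 9.44-fold higher in Epi-CE-T than in Epi-CE (6.38 to 14.5). Robo1 had 0.943, 0.467, 0.665 and 0.727 CPM, and Robo4, known as the endothelial Robo, had 1.62 CPM in Epi-NMP and 0.111, 0.341 and 0.140 in the other libraries. Robo3 was between 0.0889 and 0.307 CPM. The 3 Slits summed to 41.8, 140, 51.5 and 12.5 CPM and the 4 Robos to 6.56, 5.34, 1.79 and 1.72 CPM.

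Ntn1 and Ntn4, the 2 netrins among the 58 genes, had their highest sum in the ES cell protocol, through Ntn1. This gene, the main attractive netrin of the midline, had 2.11 CPM in Epi-NMP (1.55 to 2.81), 1.71 in Epi-CE-T (1.35 to 2.14), 1.26 in Epi-CE (0.991 to 1.58) and 6.27 in ES-NMP. It was 2.97-fold lower in Epi-NMP than in ES-NMP (2.20 to 4.10) and 4.97-fold lower in Epi-CE than in ES-NMP (3.88 to 6.45). Both values depended on 1 group of ES-NMP cells, described with the clusters below. Ntn4 was below 1 CPM in every library, with 0.225, 0.645, 0.153 and 0.391 CPM. Of the netrin receptors, which are not among the 58 genes, Neo1 (neogenin) had 14.4, 8.94, 7.43 and 7.07 CPM, Unc5b had 6.24, 7.27, 11.1 and 7.71, and Dcc had at most 0.112 CPM.

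Of the 3 Slitrk genes only Slitrk2 passed 2-fold in any of the 4 comparisons, and it lay between 0.168 CPM in ES-NMP and 0.682 in Epi-CE. Its Epi-NMP over Epi-CE ratio, 0.791 in the TRUE cells, was 2.09 over all barcodes. Slitrk4 lay between 0.908 and 1.85 CPM and Slitrk5 between 4.14 and 5.89.

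**Figure D2:**
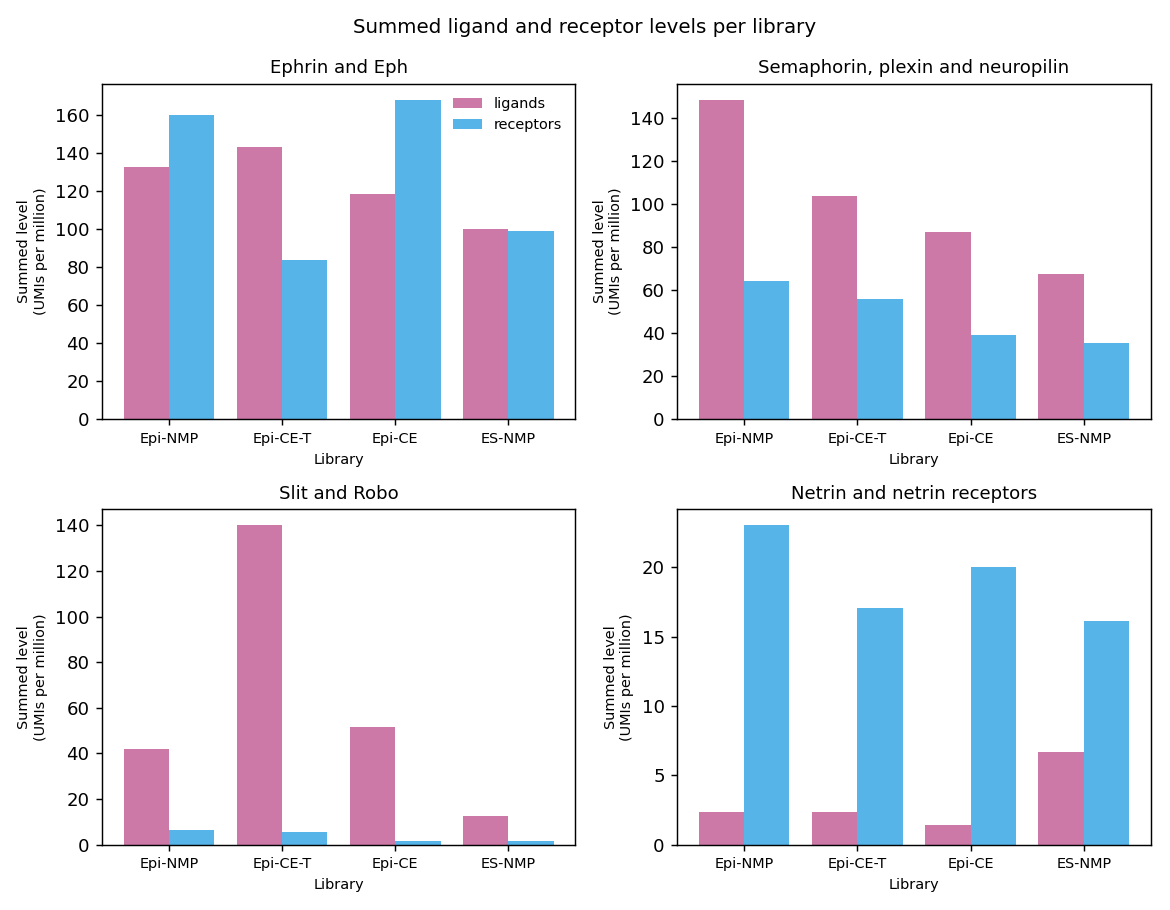
Summed level of the ligands and of the receptors of each guidance system in the 4 libraries, as bars in CPM starting at 0, each panel on its own scale and with no error bars. Netrin receptors are the 7 receptors of the list of other pathway genes. Slit ligands reach 140 CPM in Epi-CE-T, against 51.5 in Epi-CE and 12.5 in ES-NMP. The netrin ligands shown, Ntn1 and Ntn4, are highest in ES-NMP at 6.67 CPM.

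Epi-NMP against Epi-CE follows the cells through the last culture step. A gene was counted as measured where the 2 libraries together held 50 UMIs or more, and as higher or lower from 2-fold. Of 53 measured guidance genes, 13 were higher (24.5%) and 6 were lower (11.3%), against 5.59% higher and 13.7% lower of the 12628 genes measured in the same libraries. The median log2 ratio was 0.48 for the guidance genes and -0.01 for all genes. Both neuropilins were higher, as were Robo2 and Robo4 among 3 measured Robos. The 13 were Sema3a, Epha5, Nrp1, Robo2, Nrp2, Robo4, Sema3e, Efna5, Sema6d, Sema5b, Ephb1, Sema4d and Plxnd1, and the 6 were Sema6b, Sema3b, Epha1, Slit3, Sema4f and Sema6c. Both directions occurred within the EphA receptors, the class 3 semaphorins and the membrane semaphorins.

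Epi-NMP against ES-NMP sets the 2 end points of the protocols beside each other. Of 47 measured guidance genes, 18 were higher (38.3%) and 3 were lower (6.38%), against 7.48% and 11.9% of 12949 genes, and the median log2 ratio was 0.65, against 0.02 for all genes. Slit2 led, followed by Sema3a, Epha5, Plxnd1 (7.27-fold) and Robo2 (6.92-fold). Membrane semaphorins gave 5 of the 18, which were Sema4g, Sema4c, Sema5a, Sema6a and Sema5b. The 3 lower genes were Sema4a, Sema4f and Ntn1. Sema4a was 12.9-fold lower, with an interval of 3.46 to 108 that reflects 2 UMIs in Epi-NMP, and Sema4f was 3.22-fold lower.

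Epi-CE against ES-NMP compares the EpiSC and ES cell routes after a first CHIR99021 step. Of 51 measured genes, 13 were higher (25.5%) and 6 were lower (11.8%), against 11.3% and 8.2% of 13553 genes, with median log2 ratios of 0.17 and 0.03. Slit2 again led, and both measured Slits were higher (Slit3 by 2.74-fold), while both neuropilins were lower. No ephrin and no EphB receptor passed 2-fold. The other higher genes were Sema6b, Sema4g, Slitrk2, Plxna2, Plxnd1, Sema3b, Sema7a, Epha7, Sema3d, Sema6c and Epha1, from 2.46-fold to 5.01-fold. The other lower genes were Ntn1, Epha5 (3.00-fold, 2.26 to 4.04), Sema3a and Sema4a. This comparison and the one before it share the ES-NMP library, and Epi-CE is shared with the other 2 comparisons, so the 4 lists are not independent.

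Epi-CE-T against Epi-CE sets GFP-sorted reporter cells against the whole culture. Of 52 measured genes, 13 were higher (25%) and 8 were lower (15.4%), against 8.39% and 7.03% of 13119 genes, with median log2 ratios of 0.26 and 0.04. The class 3 semaphorins and the EphA receptors leaned to opposite sides. Of 6 class 3 semaphorins 5 were higher and 0 lower (median log2 ratio 1.81), and of 3 Slits 2 were higher. Of 5 measured EphA receptors 4 were lower and 0 higher (median -1.18), with Epha1, whose values are uncertain, among the 4. Of 11 membrane semaphorins 4 were lower and 1 higher. The 5 ephrin-A ligands, 3 ephrin-B ligands and 5 EphB receptors had 1 gene each that was higher and 0 lower. The 6 plexins were all within 2-fold. The lower genes were Sema4f, Epha1, Sema7a, Epha2, Epha5, Sema6b, Sema4d and Epha7, and those higher outside the class 3 semaphorins were Nrp1, Robo2, Slit2, Slit1, Ephb3, Efnb2, Sema4g and Efna5.

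**Figure D3:**
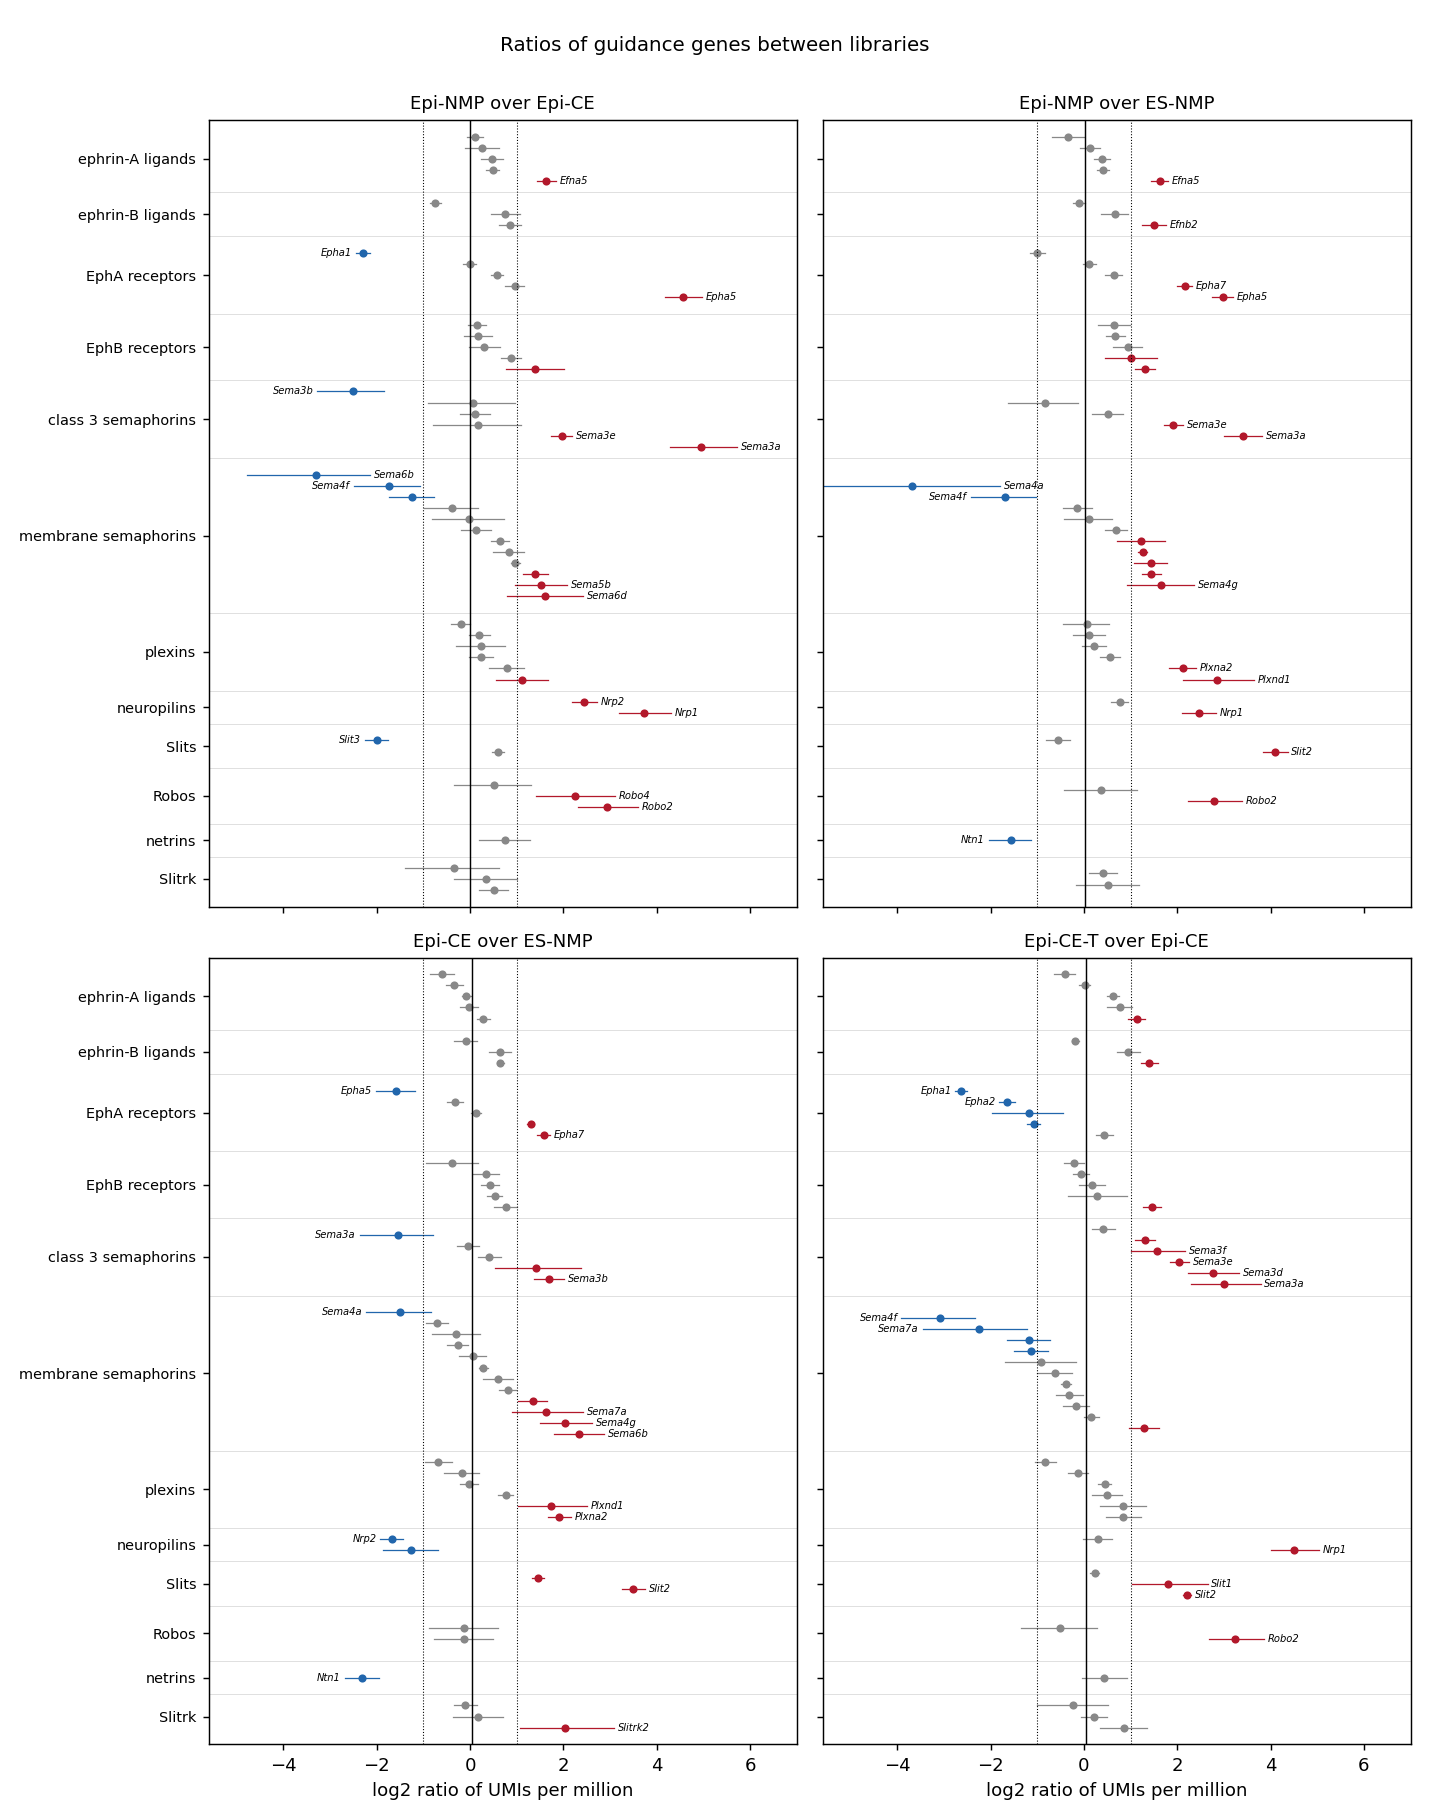
Log2 ratio of each measured guidance gene in the 4 comparisons, by role, with 95% counting intervals, red for at least 2-fold higher, blue for at least 2-fold lower and grey for within 2-fold. The solid line is the median of all measured genes, the dotted lines mark 2-fold, labels are given beyond a log2 ratio of 1.5 in size, and the bar of Sema4a (Epi-NMP over ES-NMP) runs past the left edge. In Epi-CE-T over Epi-CE the class 3 semaphorins lie to the right and 4 of the 5 measured EphA receptors to the left.

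To see which cells held these transcripts, the 8722 TRUE cells were clustered without using the guidance genes, which gave 17 clusters. In 14 of them at least 90% of the cells came from 1 library, so a cluster may be that library rather than a cell type, and the levels below are descriptions within libraries. Clusters were named only where markers from fixed lists led them. Epi-NMP was made of cluster 3 (575 cells, unnamed, led by Hoxb5os, Hoxc10 and Hoxc9, with Sox2 at 158 CPM and T at 228), cluster 14 (387 cells, unnamed, led by Meox1, Ntm and Mesp1) and cluster 13 (131 cells, unnamed, with T at 924.5 CPM and Foxa2 at 43.2). Doublets were not removed.

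The genes highest in Epi-NMP were not all in the same cells. Epha5 had 41.1 CPM in cluster 3 (37.6 to 44.9), against 6.32 in cluster 14 and 0.527 in cluster 13, and cluster 3, with 51.8% of the library's cells, held 90.1% of its Epha5 UMIs. Sema3a was split likewise, at 16.3 CPM in cluster 3, 2.06 in cluster 14 and 3.69 in cluster 13, and Sema3e had 28.3, 5.28 and 5.27 CPM. Sema6a was at 80.6, 48.5 and 29.5 CPM in clusters 3, 14 and 13. Epha7 was the reverse of Epha5 with 13.8, 64.8 and 80.1 CPM, and Plxna2 had 1.98, 22.7 and 17.9. Efnb2 was low in cluster 3 too (5.68 CPM, against 16.9 in cluster 14 and 19.0 in cluster 13). Cluster 13, highest in the T-box gene T, and cluster 14, highest in Meox1, were thus the ones high in Epha7, Plxna2 and Efnb2. Cluster 3, highest in Sox2, was the one high in Epha5, Sema3a and Sema3e. T itself did not follow this division, since it was at 228 CPM in cluster 3 and at 105 in cluster 14.

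Slit2 followed neither of these splits. In Epi-NMP it had 154 CPM in cluster 13 (137 to 172), against 22.8 in cluster 3 and 24.5 in cluster 14, and cluster 13, with 11.8% of the cells, held 38.0% of the Slit2 UMIs. Cluster 13 met 4 of the 7 listed node or notochord markers (Foxa2, Shh, Chrd and Nog), but stayed unnamed since none of them led it. Cluster 8 of Epi-CE-T, below, met the same 4. Cluster 13 is the only cluster with at least 50 cells in both Epi-NMP and Epi-CE. Its 59 Epi-CE cells had 142 CPM of Slit2 (120 to 167), so the intervals for the cells of the 2 libraries overlapped, while the other Epi-CE clusters had 9.74 to 36.7 CPM. In Epi-CE-T, Slit2 had 158 and 127 CPM in clusters 8 and 16, both node or notochord-like by their markers, and 174 CPM in cluster 10 (unnamed, led by Pcdh17, Cd36 and Spp1), against 6.97 in cluster 9. In ES-NMP it was at most 6.30 CPM in any cluster. The Slit2 level in cluster 13 depended on how finely the cells were divided, since at a coarser setting the highest Epi-NMP cluster had 39.0 CPM.

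The share of cells with at least 1 Slit2 UMI, after each cell was thinned to 8000 UMIs, was 21.7% in Epi-NMP, 50.3% in Epi-CE-T, 16.1% in Epi-CE and 1.64% in ES-NMP. Without thinning the shares were 34.9%, 68.0%, 31.6% and 4.30%. Among clusters the thinned share for Slit2 ran from 0.366% in cluster 2, primed epiblast-like cells of ES-NMP with a median of 23627 UMIs, to 66.5% in cluster 13 with a median of 14332 UMIs. For Epha5 the thinned shares were 13.0%, 0.332%, 0.922% and 2.44% of cells in Epi-NMP, Epi-CE-T, Epi-CE and ES-NMP, with 21.6% in cluster 3. For Nrp1 they were 5.22%, 10.2%, 0.629% and 1.09%, from 0.150% in cluster 4 to 19.2% in cluster 10.

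Within Epi-CE-T, cluster 9 (417 cells, 19.8% of the library, led by Adm and Vgf) stood apart. Its T level was 39.5 CPM, against 447 to 706 CPM in the library's other clusters, the lowest level of the reporter's own gene in the sorted library. Nrp1 was at 1.03 CPM there, against 15.1 in cluster 8, 17.3 in cluster 16 and 32.1 in cluster 10 (at the coarser setting, the highest Epi-CE-T cluster had 19.0 CPM of Nrp1). Sema3e was at 6.02 CPM, against 23.1 to 26.6 in the other clusters, and Sema3c at 1.58, against 10.1 to 18.8. Epha1 (25.3 CPM, against 4.86 to 7.97) and Efnb1 (79.6 CPM, against 28.8 to 42.2) were higher in cluster 9. Cluster 10 was highest in Robo2 (14.2 CPM, against 2.22 to 4.86 in the others) and in Sema3d (11.9 CPM, against 0.0792 to 4.86). Without cluster 9, Epi-CE-T had 16 of 52 guidance genes higher and 8 lower than Epi-CE, against 10.5% higher and 9.04% lower of all genes, shares that were 8.39% and 7.03% with it. Sema5b then passed 2-fold (ratio 0.168, against 0.531 with cluster 9), and Epha1 was at 0.0988 of its Epi-CE level instead of 0.162.

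In Epi-CE, cluster 15 (220 cells, paraxial and presomitic mesoderm-like) had 55.9 CPM of Plxna2 (49.9 to 62.5), against 1.86 to 8.89 in the other clusters, and with 9.22% of the cells held 56.6% of the library's Plxna2 UMIs. Epha4 was also high there, at 45.6 CPM (40.1 to 51.6). The other clusters had 27.7 (cluster 13), 8.12 (cluster 5), 3.86 (cluster 12) and 2.74 CPM (cluster 11). Cluster 11 was named primed epiblast-like on 3 of 8 listed markers (Fgf5, Pou3f1 and Pim2), and had T at 365.6 CPM. At the coarser setting 80.6% of Epi-CE cells fell in an unnamed cluster. Cluster 15 also had the highest Epha1 level of any cluster, 138 CPM, and 44.5 CPM of Efna3, against 9.84 to 16.6 in the other Epi-CE clusters. In ES-NMP, cluster 6 (138 cells, unnamed, led by Sox17, Spink1 and Tbx6) had a like set of values, with 31.5 CPM of Plxna2, against 0.298 to 3.82 in the other clusters, 32.8 CPM of Epha4 and 62.1 of Efna3. It also had 33.5 CPM of Efna1, against 1.25 to 9.01 elsewhere in the library. The 2 clusters were both high in Plxna2, Epha4 and Efna3, although they came from different protocols. High Epha4 and Efna3 were not particular to them. Within ES-NMP, Epha4 was highest in the neural-like cluster 7 (36.5 CPM), and cluster 10 of Epi-CE-T had 47.3 CPM of Efna3.

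The neural-like cluster of ES-NMP, cluster 7 with 220 cells, was highest of that library in Nrp2 (33.3 CPM, against 3.35 to 22.1), Epha7 (45.4 CPM, against 4.16 to 8.63) and Efnb2 (12.9 CPM, against 0.634 to 8.36), and had 36.5 CPM of Epha4. Efnb1 in ES-NMP ran from 6.09 CPM in cluster 4 to 74.9 in cluster 0, which held 45.5% of the library's Efnb1 UMIs with 20.8% of its cells. Cluster 0 was named caudal epiblast or NMP-like on 4 of 11 listed markers (Nkx1-2, Cdx2, Wnt8a and Hes3). Its T level was 69.7 CPM, below the 119 CPM of cluster 2, the primed epiblast-like cluster of this library. Sema6a ran from 2.47 CPM in cluster 4 to 68.1 in cluster 1, the other cluster named caudal epiblast or NMP-like. Cluster 4 (669 cells) was the naive pluripotent-like cluster, and it had 16.8 CPM of Ntn1 (14.8 to 19.0), against 1.25 to 5.19 in the other clusters, and 59.0% of the library's Ntn1 UMIs with 21.5% of its cells. Without cluster 4, Ntn1 was within 2-fold between Epi-NMP and ES-NMP (ratio 0.640, against 0.336 with it), and still lower in Epi-CE than in ES-NMP (0.382, against 0.201).

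**Figure D4:**
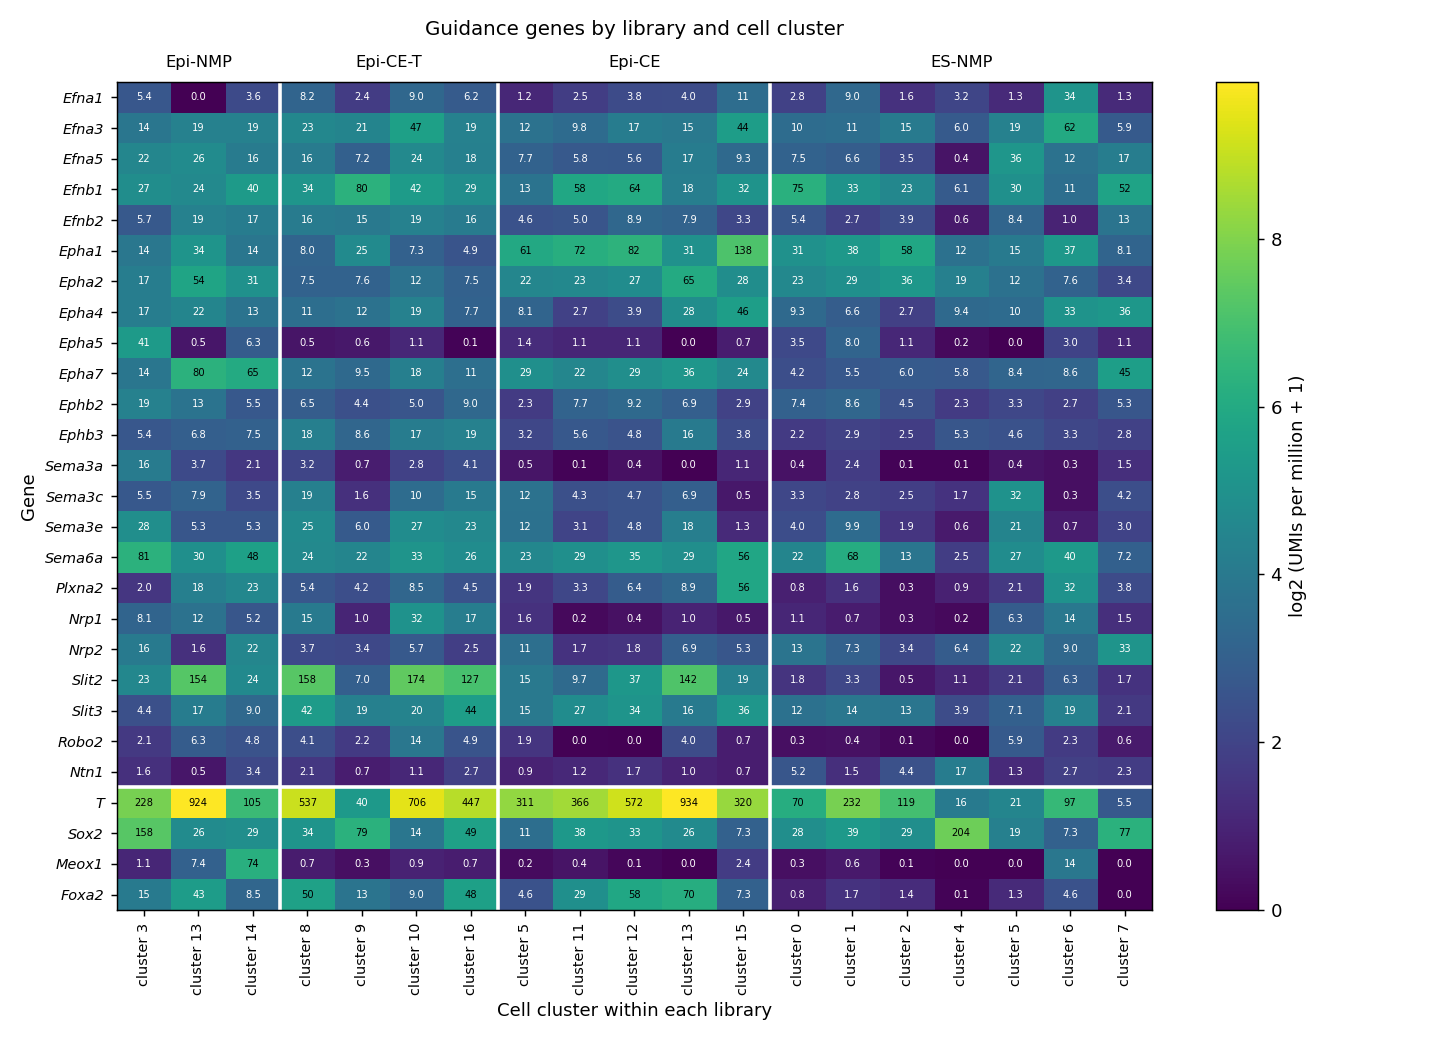
Level of 23 guidance genes, and of T, Sox2, Meox1 and Foxa2 below the white line, in each cluster with at least 50 cells of a library. Colour is log2 of CPM plus 1 and the printed numbers are CPM. Epha5 is high in cluster 3 of Epi-NMP (41.1 CPM), Slit2 in cluster 13 (154 CPM) and in clusters 8, 10 and 16 of Epi-CE-T (127 to 174 CPM), and Plxna2 in cluster 15 of Epi-CE (55.9 CPM).

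Other genes of the guidance pathways, listed by function and not among the 58, gave a mixed picture. The lists held 7 netrin and repulsive guidance receptors, 10 further ligands and 30 intracellular effectors and ligand-processing genes, and Ntn3 was not analysed here. In Epi-NMP against Epi-CE 7 of 36 measured genes were higher and 1 lower, beside 5.59% and 13.7% of all genes. In Epi-NMP against ES-NMP 10 of 38 were higher and 3 lower, beside 7.48% and 11.9%. In Epi-CE against ES-NMP 2 of 37 were higher and 2 lower, beside 11.3% and 8.2%. In Epi-CE-T against Epi-CE 4 of 35 were higher and 3 lower, close to the 8.39% and 7.03% of all genes. The 4 genes higher in Epi-CE-T than in Epi-CE were all further ligands, out of 5 measured, with a median log2 ratio of 2.40 for that list.

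Of the further ligands, Flrt3, a membrane protein that binds Unc5 receptors, had 35.2 CPM in Epi-NMP, 49.0 in Epi-CE-T, 8.32 in Epi-CE and 7.45 in ES-NMP, and its paralogue Flrt2 had 6.24, 6.14, 0.784 and 0.461. Both were high in the same pair of libraries as Sema3e and Robo2. Rgma, a ligand of neogenin, had 20.4, 39.6, 17.7 and 18.3 CPM. Ntng1 had 4.13, 10.1, 1.91 and 0.391 CPM, and Ntn5 had at most 0.556 CPM. Both were highest in Epi-CE-T, unlike Ntn1. Of the effectors, Crmp1, a collapsin response mediator that acts in semaphorin signalling, had 11.8, 9.29, 29.1 and 30.7 CPM, and Adam10, a protease that cleaves ephrins, had 30.4, 27.3, 20.8 and 9.24 CPM. Of 27 measured effectors 0 were higher and 2 were lower in Epi-CE-T than in Epi-CE.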

How the data were processed

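The deposited table held raw counts of UMIs per gene and cell barcode, made by the authors with Cell Ranger 1.3.1 on mm10, with Seurat 2.0 also named, per the submitters' processing notes. Barcodes were assigned to libraries by the deposited annotation, which also gives the TRUE or FALSE mark, and all column groups of the table were used. UMIs of TRUE cells were summed per library and scaled to 1000000 (CPM). Levels have exact Poisson intervals, shares exact binomial (Clopper-Pearson) intervals and ratios exact conditional binomial intervals, all at 95% and for counting error only. No test was made between protocols, since each had 1 library. Genes counted as measured had 50 UMIs over both libraries.

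The genes, the lists of other pathway genes and the marker lists were chosen with earlier results of these data known. The genes given with full values were the 3 highest of each role plus the 5 highest and 5 lowest ratios of each comparison among genes with 200 UMIs; Epha4 and Plxnd1, and the members given only by a range or by name, were outside this rule and were chosen after their values were seen. Cells were clustered with scanpy 1.11.5 (10000 UMIs per cell, 2000 variable genes without the guidance genes, 30 components, 15 neighbours, Leiden resolution 1 with igraph 0.11.9). Rules that withheld a cluster's name were tightened after the clusters were seen. The ratio step was tested on simulated data. Alternative scalings used edgeR 4.0.16 and DESeq2 1.42.0 size factors. Gene positions came from GENCODE M21. Of the 58 genes, 14 overlap a gene on the opposite strand, and apart from Zyx these partners had at most 0.689 CPM.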

Additional observations from a re-analysis of the deposited data

How the results depend on the processing

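No ratio of at least 2-fold changed direction under the other cell sets and scalings, while some within 2-fold did. Of 1571 recomputed ratios, 1502 stayed within their counting interval and 69 moved beyond it. The settings were unequal. The edgeR and DESeq2 scalings moved 0 of 203 ratios each, and the use of all barcodes moved 11 of 203. Leaving out the naive cluster of ES-NMP moved 29 of 98, and leaving out cluster 9 of Epi-CE-T moved 15 of 52. With a minimum of 200 UMIs, 7 of 36 genes were higher in Epi-NMP than in Epi-CE (4.40% of all genes), 7 of 37 were higher and 3 lower in Epi-CE than in ES-NMP (9.16% and 5.70%), and 5 of 39 were lower in Epi-CE-T than in Epi-CE (5.03%). With a threshold of 1.5-fold, 23 of 53 genes were higher in Epi-NMP than in Epi-CE (14.9% of all genes) and 5 of 47 were lower in Epi-NMP than in ES-NMP (18.4%). Without the naive cluster of ES-NMP, Sema4b was at 1.38 in Epi-NMP and 1.26 in Epi-CE over ES-NMP, against 0.908 and 0.830 with it. Leaving out cluster 9, chosen after seeing the data, took Sema4f in Epi-CE-T over Epi-CE to a ratio of 0.0618, against 0.119 with it. With coarser clustering (resolution 0.5) the highest cluster level was 39.0 CPM for Slit2 in Epi-NMP, 19.0 for Nrp1 in Epi-CE-T and 51.4 for Efnb1 in ES-NMP. No paired analysis was possible because each protocol had 1 library, and for the same reason no library could be left out. The floor that a count of 0 allows (3 UMIs) was 0.135 CPM at the depth of Epi-NMP, the shallowest library, against 0.0419 for ES-NMP.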
